A study of Danio rerio with 10 samples.

Results

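The genes described here, 9 in number, encode parts of the heart-muscle contractile apparatus and were followed through all 10 libraries: the thin-filament genes actc1a, tnnt2a, a tnni1 copy and tnnc1a, the thick-filament genes myl7, cmlc1 and vmhc, a titin gene, and the calcium pump gene atp2a2a. They were taken by name or identifier from a given list, chosen with earlier results of these data known, and they are 9 of the 32520 genes counted. The cells were not sorted as muscle: the labels name the cell type as platelets, and every library held RNA of all 9 genes, with 3520 to 149887 counts per gene and library. Adult zebrafish ventricles were dissociated and cells were sorted by a fluorescent reporter, with 15 ventricles and 6000 sorted cells pooled for each library. The study compared sorted cells of fish with altered npas4l, the gene of the cloche locus, whose transcription factor acts at the start of blood and endothelial development.

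In the CD41 experiment, cells carried eGFP under the promoter of CD41, the product of itga2b and a marker of thrombocytes, which are the nucleated platelets of fish. The hearts had been amputated, and 3 wild type libraries were compared with 3 libraries of fish heterozygous for the clofv087b allele, called clo/+ here. The sample labels give 1 day after amputation and the series text gives 3 days. In the gata1a experiment, cells carried DsRed under the promoter of gata1a, a transcription factor gene of the erythroid and thrombocyte lineages, and all 4 libraries were made 7 days after treatment with 4-HT, the ligand that activates the Cre-ERT2 recombinase. The 2 libraries titled Npas4l OE, called OE libraries here, came from fish with both gata1a:Cre-ERT2 and ubi:loxp-eGFP-stop-loxp-Npas4l, a design in which recombination in gata1a-expressing cells removes a stop cassette in front of Npas4l. Control replicate 2 carried the loxp transgene without the recombinase, whereas control replicate 1 bears clofv087b/+ as its genotype label; libraries were grouped by title, so it was kept as a control, and the results for the 9 genes are also given without it. Counts of npas4l did not separate the OE libraries (451 and 265) from the controls (344 and 230), so directions in this experiment rest on the titles.

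The sarcomere is the contractile unit of striated muscle. Myosin heads on the thick filament pull on actin in the thin filament, calcium bound by the troponin complex permits this, titin spans from Z disc to M band as a spring, and the calcium pump of the sarcoplasmic reticulum ends each contraction by taking calcium back up. Thrombocytes and red cells are not known to build sarcomeres, and actin and myosin of non-muscle cells come from other genes.

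The genes behind the reporters were present in every library: itga2b had 457 to 1327 CPM in the CD41 libraries and 2248 to 3133 CPM in the gata1a libraries, and gata1a had 207 to 826 CPM over all 10. Totals of gene counts lay between 6764258 and 13067068 for CD41 libraries and between 7396916 and 9036340 for gata1a libraries. The chi-square of counts between replicates, divided by its degrees of freedom, was 11.04 to 43.6, where counting noise alone gives about 1, so the spread between libraries, not depth, sets the precision for genes at these levels. Levels are given as CPM, read counts relative to library size, scaled by TMM factors over the 10 libraries, and they were not divided by transcript length, so levels of different genes were not ranked. In bulk libraries, fewer cells of a type and less RNA per cell cannot be told apart.

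The 9 genes took 2.40%, 1.80% and 3.17% of the gene counts in the wild type libraries and 2.93%, 2.14% and 3.56% in the clo/+ libraries. They took 4.34% and 5.37% in the controls of the gata1a experiment and 2.98% and 2.86% in the OE libraries. In this sum the controls were thus the highest of the 10 libraries, and the OE libraries lay within the range of the CD41 libraries. Not every gene did so. The OE libraries had 9595 and 8317 CPM of actc1a, against at most 7678 CPM in a CD41 library. For titin, OE replicate 2 had 733 CPM, against at most 717 CPM in a CD41 library. Genes of fast skeletal muscle were near absent, with 20 list genes summing to between 0.205 and 2.42 CPM per library and none of them passing the low-count filter.

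**Figure D1:**
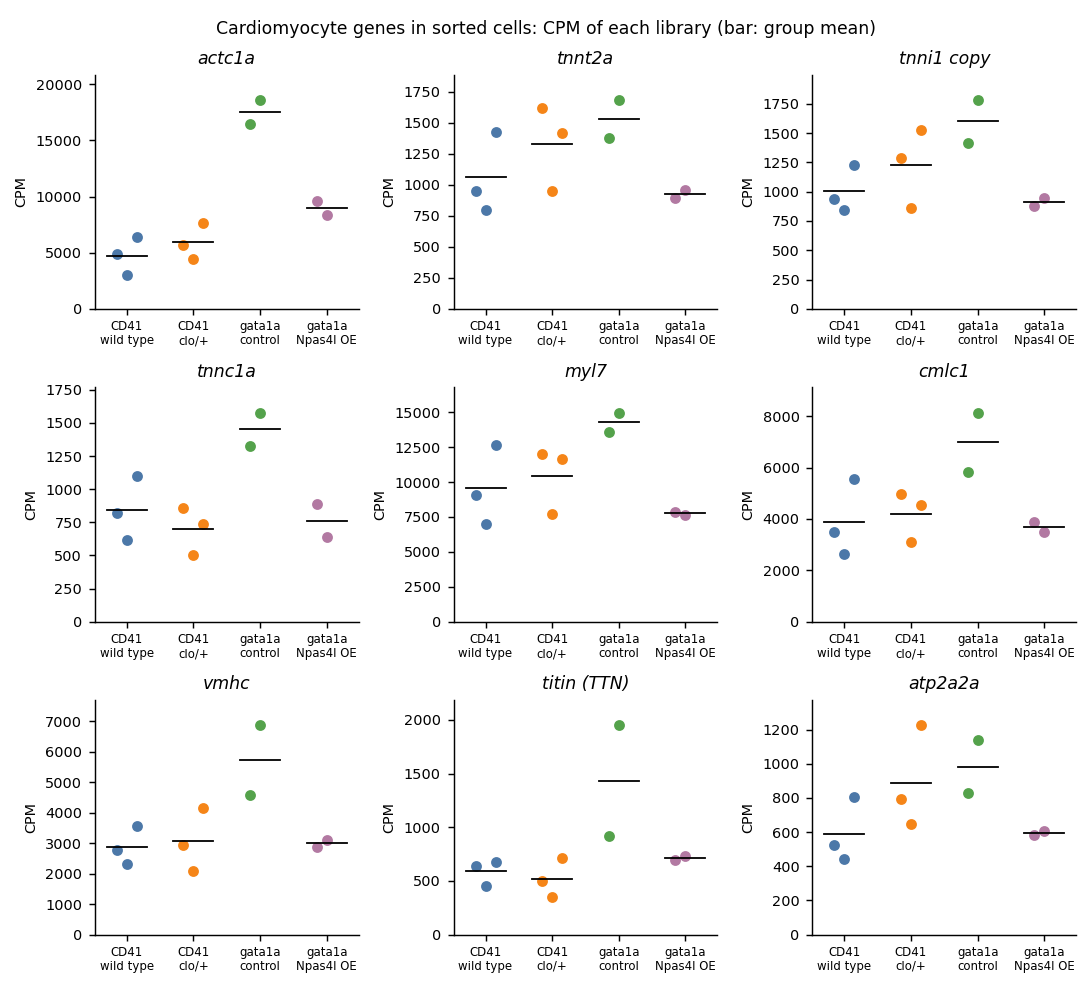
Level of each of the 9 genes in each library, in CPM on a linear axis, with 1 point per library and a bar at the mean of each group (3 wild type, 3 clo/+, 2 control and 2 Npas4l OE libraries). In every panel the wild type and clo/+ points overlap and both controls lie above both Npas4l OE points.

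In the CD41 experiment, no difference between clo/+ and wild type was detected for any of the 9 genes, which overlapped between the groups in every case. Replicate 2 was the lowest library of its group for all 9 genes in both groups. For each gene the range within either group, up to 2.14-fold for actc1a in wild type, was larger than the fold difference between the groups. The gene with the largest difference was the calcium pump gene atp2a2a, which was 1.50-fold higher in clo/+ at an unadjusted p of 0.0440 and did not pass the adjustment.

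On the thin filament, actc1a, the cardiac actin (ENSDARG00000042535), had 4865, 2984 and 6390.3 CPM in the wild type libraries and 5692, 4467 and 7678 CPM in the clo/+ libraries. The clo/+ values lay among and above the wild type values, with a log2 fold change of 0.33 (SE 0.29; adjusted p = 0.671, edgeR's quasi-likelihood test, adjusted by Benjamini-Hochberg over all genes tested). The troponin T gene tnnt2a (ENSDARG00000020610), whose product ties troponin to tropomyosin, had 951, 799.5 and 1426 CPM in wild type, against 1619, 946 and 1416 CPM in clo/+. Its groups overlapped, with a log2 fold change of 0.33 (SE 0.26). The tnni1 copy ENSDARG00000052708, for the inhibitory troponin subunit, had a mean of 1005 ± 201 CPM in wild type, against 1224 ± 337 CPM in clo/+ (SD, n = 3 each), and a log2 fold change of 0.29 (SE 0.25). The gene of the calcium-binding subunit, tnnc1a (ENSDARG00000011400), went the other way, at 817, 618 and 1099 CPM in wild type and 859.9, 502 and 739 CPM in clo/+. Its log2 fold change was -0.27 (SE 0.26; adjusted p = 0.701, edgeR).

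On the thick filament, myl7 (ENSDARG00000019096), the regulatory light chain used as a pan-cardiac marker in zebrafish, had 9104, 7004 and 12632 CPM in wild type, against 11981, 7706 and 11621 CPM in clo/+. All clo/+ values lay inside the wild type range, and the log2 fold change was 0.12 (SE 0.27). The light chain gene cmlc1 (ENSDARG00000032976) overlapped likewise, with 3899 ± 1499 CPM in wild type, against 4198 ± 984 CPM in clo/+ (SD, n = 3 each) and a log2 fold change of 0.11 (SE 0.28). The ventricular myosin heavy chain gene vmhc (ENSDARG00000079782, listed as MYH7 in the name table) averaged 2888 ± 637 CPM in wild type, against 3062 ± 1041 CPM in clo/+ (SD, n = 3 each). The log2 fold change, 0.085 (SE 0.27), was the nearest to 0 of the 9 genes.

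The titin gene (ENSDARG00000000563) had 642, 455 and 672 CPM in wild type and 496, 350.4 and 717 CPM in clo/+, which put the lowest and the highest value of the 6 libraries in the same group. Its log2 fold change was -0.18 (SE 0.26). The pump gene atp2a2a (ENSDARG00000029439) had 524, 439.9 and 807 CPM in wild type, against 791, 646 and 1225 CPM in clo/+. The middle clo/+ value was just below the highest wild type value, so the groups overlapped, and the log2 fold change was 0.59 (SE 0.27; adjusted p = 0.400, edgeR).

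Groups without overlap were found for 0 of the 9 genes, where 9.24% of all genes tested were higher and 9.02% lower in clo/+ without overlap. Of the 9 genes, 0 had an adjusted p under 0.05 by edgeR, as against 2 of 13749 genes tested (0.0145%), with the 9 adjusted p values between 0.400 and 0.920, and 0 did so by DESeq2 (0.96% of all genes) or limma-voom (0.00727%). At an unadjusted p under 0.05, atp2a2a alone passed and was higher, where 7.19% of all genes tested were higher at that threshold. Of the 9 log2 fold changes, 7 were above 0, as were 49.8% of all genes tested, and their median was 0.12 beside -0.0021 over all genes tested. Leaving out one library turned the direction of myl7, cmlc1, vmhc and titin, and the median ran from -0.053 without wild type replicate 2 to 0.46 without wild type replicate 3.

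In the gata1a experiment, all 9 genes were lower in the OE libraries than in the controls, by 1.66-fold for tnnt2a and atp2a2a to 2.01-fold for titin. In none of the 9 did the groups overlap, where 24.1% of all genes tested were lower without overlap. Their sum was 46299 and 56769 CPM in the controls against 28165 and 26473 CPM in the OE libraries. None of the 9 passed the adjusted threshold in edgeR's quasi-likelihood test with 2 libraries a group. In DESeq2, 8 of them did so, beside 2.71% of all genes tested.

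The cardiac actin gene actc1a had 16438 and 18639.9 CPM in the controls against 9595 and 8317 CPM in the OE libraries. The groups were well apart, with a log2 fold change of -0.97 (SE 0.19; adjusted p = 0.0903, edgeR). The troponin T gene tnnt2a had 1373 and 1685 CPM in the controls against 895 and 955 CPM, a log2 fold change of -0.73 (SE 0.21). The tnni1 copy had 1417 and 1785 CPM against 881 and 946 CPM, a log2 fold change of -0.81 (SE 0.21). The troponin C gene tnnc1a had 1328 and 1579 CPM against 889.8 and 636 CPM, a log2 fold change of -0.93 (SE 0.23). For each of the 3 troponin genes the lower control stood farther from the higher OE library than replicates of either group stood from each other. Their adjusted p values in that edgeR test were 0.163 for tnnt2a, 0.143 for the tnni1 copy and 0.130 for tnnc1a.

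The light chain gene myl7 had 13579 and 14978 CPM in the controls against 7883 and 7663 CPM in the OE libraries. In each group its replicates were the closest of the 9 genes, with a log2 fold change of -0.88 (SE 0.18; adjusted p = 0.0984, edgeR). The light chain gene cmlc1 had 5827 and 8145 CPM against 3870.2 and 3496 CPM, a log2 fold change of -0.93 (SE 0.22). The heavy chain gene vmhc had 4592 and 6869 CPM against 2869.7 and 3118 CPM, a log2 fold change of -0.94 (SE 0.23). In both, control replicate 2 stood well above control replicate 1, and their adjusted p values in edgeR were 0.127 and 0.130.

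The titin gene showed the widest gap between controls, at 915 and 1949.9 CPM, whereas the OE libraries had 697 and 733 CPM. Its log2 fold change was -1.01 (SE 0.32; adjusted p = 0.188, edgeR), and it was -0.35 when control replicate 2 was left out. The size of the titin difference therefore rested on that library. The pump gene atp2a2a had 830.1 and 1138 CPM in the controls against 585 and 608 CPM in the OE libraries, a log2 fold change of -0.73 (SE 0.22; adjusted p = 0.184, edgeR).

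**Figure D2:**
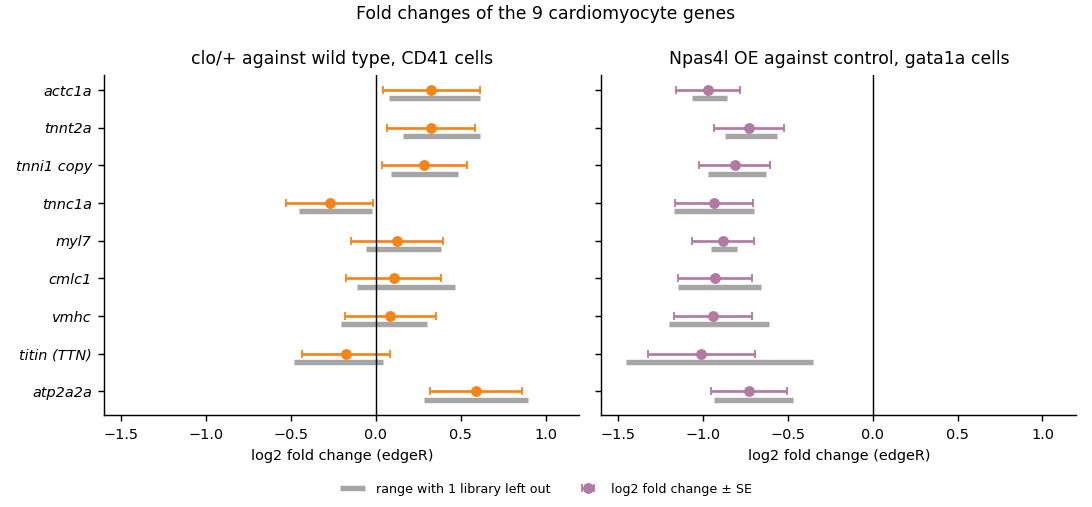
Log2 fold change of each of the 9 genes, with a bar of 1 standard error on each side from edgeR's quasi-likelihood fit, for clo/+ over wild type and for Npas4l OE over control. The values run from -0.27 to 0.59 in the first comparison and from -1.01 to -0.73 in the second, where every bar stays below 0.

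Non-overlapping lower values were found for 9 of 9 genes, where 24.1% of the 14006 genes tested were lower and 23.6% higher without overlap. At an unadjusted p under 0.05, 9 of 9 were lower, beside 9.36% of all genes tested. Below 0 lay 9 of 9 log2 fold changes and 50.6% of those of all genes tested. The median log2 fold change of the 9 was -0.93 and that of all genes tested -0.010. The 9 genes were chosen with earlier results of these data known, and their levels vary largely together. Counts of 9 of 9 are therefore not 9 separate observations. By an adjusted p under 0.05, edgeR called 0 of the 9 genes and 5 of 14006 in all (0.0357%), DESeq2 called 8 of the 9 (all but atp2a2a) and 2.71% of all genes, and limma-voom called 2 (actc1a and myl7) and 0.643% of all genes. Left out singly, control replicate 1, which has the clofv087b/+ label, gave 9 called genes of 9 (7.49% of all genes), control replicate 2 gave 4 (actc1a, myl7, cmlc1 and vmhc; 1.03% of all genes), and OE replicates 1 and 2 gave 0 (0.348% and 1.67% of all genes); the lone library of a group is then assumed to vary like the other group. Without control replicate 1 the log2 fold changes ran from -0.87 for tnnt2a to -1.45 for titin, with a median of -1.05. Without control replicate 2 they ran from -0.35 for titin to -0.87 for actc1a, with a median of -0.63, so their order changed with the control while their sign did not.

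Across the 10 libraries the 9 genes varied in level largely together. The mean of their log2 CPM, each centred on its own mean, was lowest in wild type replicate 2 (-0.64) and clo/+ replicate 2 (-0.54), highest in control replicate 2 (0.90), and -0.14 and -0.19 in the OE libraries. The other wild type and clo/+ libraries lay between -0.28 and 0.22. Within the CD41 experiment, both the low and the high libraries thus came from both genotypes.

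**Figure D3:**
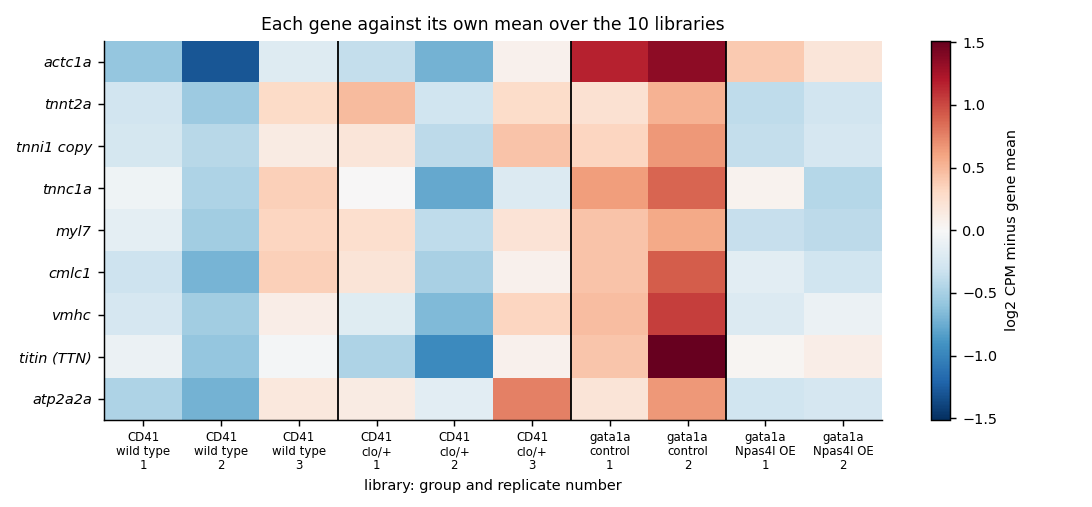
Heat map of log2 CPM centred on each gene's mean over the 10 libraries, with genes in rows in the order of their roles and libraries in columns by group. The columns of wild type replicate 2 and clo/+ replicate 2 are low and that of control replicate 2 is high for nearly every gene, and actc1a has the widest range.

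Ratios to myl7 within a library show how far the genes kept their proportions, and they are given as a description with no test. Over the 10 libraries, the SD of the log2 ratio was 0.12 for tnnt2a, 0.13 for the tnni1 copy and 0.17 for cmlc1, whereas the SD of their log2 CPM was 0.40, 0.39 and 0.49. Troponin T, this troponin I copy and the light chain gene cmlc1 thus kept close to myl7 while their levels moved. The ratio of vmhc varied with an SD of 0.27, that of tnnc1a with 0.28 and that of atp2a2a with 0.26. The ratio of titin varied more, with an SD of 0.50 and a highest value of 0.130 in control replicate 2 beside 0.0414 to 0.0957 in the other libraries.

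Actin departed most from that proportion, with an SD of the log2 ratio of 0.63. Actc1a stood at 0.426 to 0.661 of the myl7 counts in the 6 CD41 libraries and at 1.09 to 1.24 in the 4 gata1a libraries, with no overlap. Between these sets of libraries, 2.94% of the 13039 genes tested in both had a ratio to myl7 that was higher in gata1a libraries without overlap and 7.62% one that was lower, and actc1a was the 1 such gene among the 8. The experiments differ in reporter, injury, 4-HT treatment, time and fish, which cannot be told apart here. Within the gata1a experiment the ratio was 1.21 and 1.24 in the controls and overlapped with that of the OE libraries, the lower of which had 1.09.

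Within the CD41 experiment, 3 of the 8 ratios did not overlap between the groups. The ratio of tnnc1a to myl7 was 0.0897, 0.0882 and 0.0870 in wild type and 0.0718, 0.0651 and 0.0636 in clo/+. The ratio of tnnc1a to myl7 was thus lower in each clo/+ library, with replicates within a narrow band in wild type. Its CPM overlapped between the groups. The ratio of tnnt2a was 0.104, 0.114 and 0.113 in wild type and 0.135, 0.123 and 0.122 in clo/+. That of atp2a2a was 0.0575, 0.0628 and 0.0639 in wild type and 0.0660, 0.0839 and 0.105 in clo/+, the last from replicate 3. Of all genes tested, 3.83% had a ratio to myl7 that was higher without overlap and 3.12% one that was lower. In CPM, without the division, these shares were 9.24% and 9.02%. For the 3 genes the division narrowed the spread over the 6 libraries. The SD of the log2 values fell from 0.41 to 0.13 for tnnt2a, from 0.39 to 0.23 for tnnc1a and from 0.52 to 0.33 for atp2a2a. Shares over all genes are therefore not a like baseline for ratios of genes that vary with myl7. Among gata1a libraries only tnnt2a of the 8 had a ratio without overlap, and it was higher in the OE libraries, where 70.5% of all genes tested were higher in this measure and 3.24% lower.

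**Figure D4:**
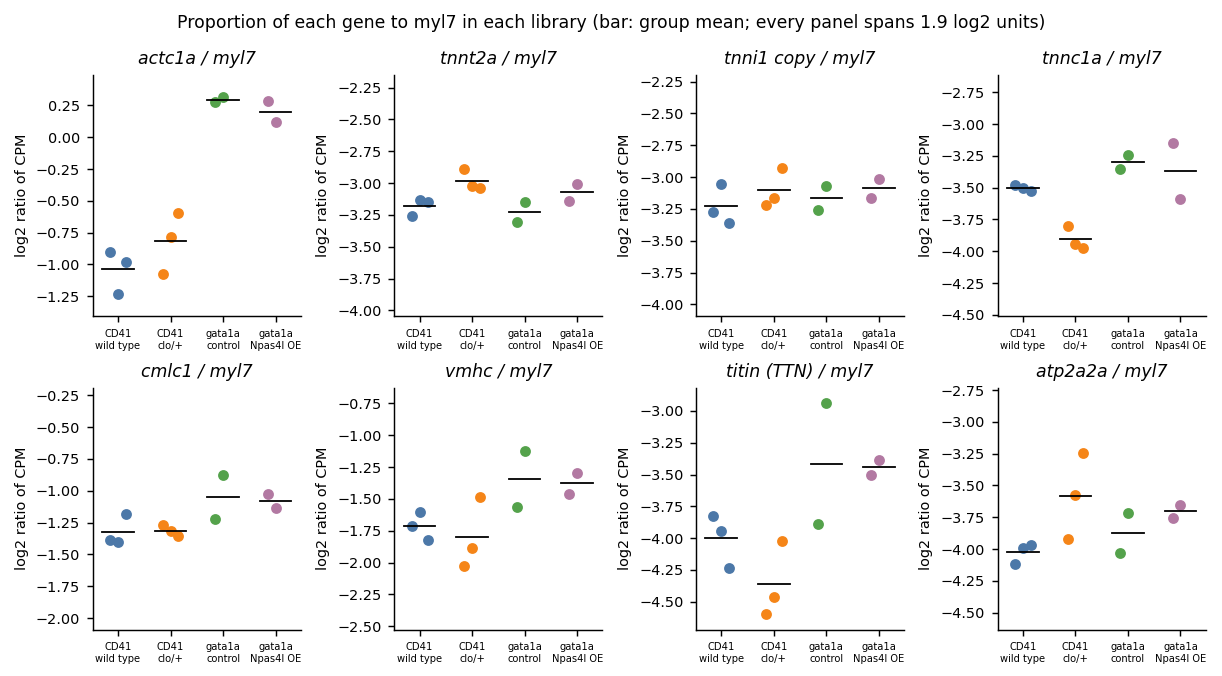
Log2 ratio of the CPM of the other 8 genes to that of myl7 in each library, with 1 point per library coloured by group. The actc1a points form a lower set of 6 CD41 libraries and an upper set of 4 gata1a libraries, and the tnnc1a points of clo/+ lie below those of wild type.

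Other genes of the apparatus were examined in lists that leave the 9 out, and no gene of any list had an adjusted p under 0.05 in edgeR in either experiment. Of the genes tested with gata1a cells, 18 of 19 for Z disc and titin lay below 0 (11 with an unadjusted p under 0.05), as did 11 of 13 thick-filament genes (5), 9 of 12 calcium-handling genes (7) and 10 of 16 thin-filament genes (5). Over all genes tested, 50.6% lay below 0 and 9.36% were lower at that threshold, so the thin-filament count below 0 was near the share over all genes. The list medians ran from -0.57 for the thin filament to -0.89 for calcium handling. Among these, pln1, a phospholamban gene for the pump's inhibitor, had 1138 and 1315 CPM in the controls and 591 and 600.4 CPM in the OE libraries, a log2 fold change of -1.05 (SE 0.20) that did not pass the edgeR adjustment (adjusted p 0.0921). MYBPC3, cardiac myosin-binding protein C, had 937 and 1594 CPM against 645 and 651 CPM. The tropomyosin gene tpm4a differed less, with 3428 and 3246 CPM against 2874 and 2871 CPM, a log2 fold change of -0.22 (SE 0.19).

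Of the genes of muscle energy supply, 17 of 17 tested lay below 0 in the gata1a experiment, 14 of them with an unadjusted p under 0.05, beside 50.6% and 9.36% of all genes, and the median was -0.86. Myoglobin (mb), the oxygen store of heart muscle, had 11554 and 12561 CPM in the controls and 5720.4 and 6997 CPM in the OE libraries. In the CD41 experiment the same list had 17 of 17 above 0, 5 of them with an unadjusted p under 0.05, and a median of 0.51, beside 49.8% of all genes above 0 and 7.19% higher at that threshold. ENO3, the muscle enolase gene, had 204, 130.1 and 311 CPM in wild type, against 447, 317 and 572 CPM in clo/+, without overlap, but its adjusted p in edgeR was 0.168. The filament lists of the CD41 experiment had medians nearer to 0, at 0.22 for the thin filament, 0.20 for the thick filament and 0.31 for Z disc and titin. Above 0 lay 11 of 16 thin-filament, 7 of 11 thick-filament and 14 of 18 Z disc and titin genes. At an unadjusted p under 0.05, 1, 1 and 4 of these were higher, and 1 thin-filament gene was lower (4.79% of all genes were lower). Calcium handling had 8 of 11 above 0 in that experiment, 0 of them at that threshold, and a median of 0.30. Cardiac transcription factors had 10 of 12 above 0 there (5 with an unadjusted p under 0.05), and 11 of 12 below 0 in the gata1a experiment (3), to be read against the same shares over all genes.

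**Figure D5:**
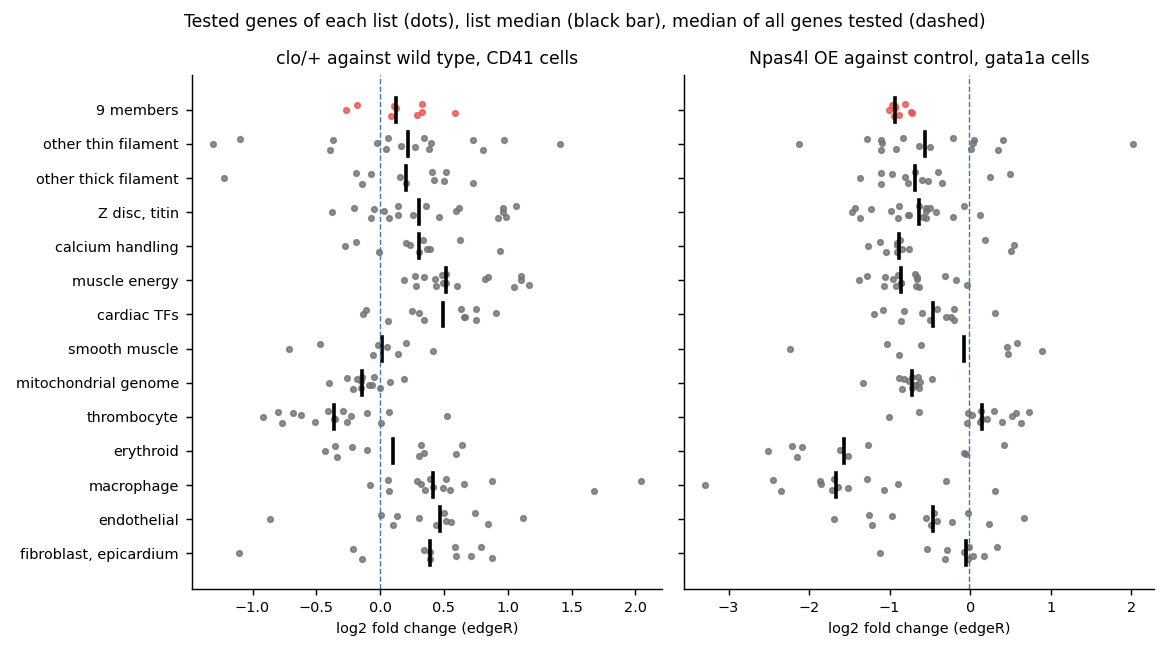
Log2 fold changes of the tested genes of each list (grey points) with the list median (bar) in the CD41 comparison and the gata1a comparison, with the 9 genes in a row of their own. In the gata1a panel the 9 genes have a median of -0.93 and the heart muscle lists medians from -0.89 to -0.46, while the macrophage (-1.67) and erythroid (-1.57) lists lie lower and the thrombocyte list lies at 0.15.

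Paralogues set limits to what these counts can tell apart, since the counting may not give shared reads to one copy. A further titin gene, TTN ENSDARG00000028213, ran at 1.77 to 2.23 times the counts of the titin gene above in every library (counts, not per length), with an SD of the log2 ratio of 0.090. Among copies looked up after the values were seen, MYH6 ENSDARG00000079564, a further heavy chain gene, had 32.9 to 172 CPM. A further tnni1 copy, ENSDARG00000000474, had 0 counts in all 10 libraries. Of the other actin copies, ACTC1 ENSDARG00000057911 had a log2 fold change of 2.02 in the gata1a experiment. It had 17.9 and 17.0 CPM in the controls and 132 and 10.3 CPM in the OE libraries, so the groups overlapped. With 1 library left out its log2 fold change ran from -0.73 to 2.93, so its direction turned. ACTA1 ENSDARG00000055618, at 285 to 1520 CPM, had a log2 fold change of -1.09 in that experiment. ACTA1 ENSDARG00000036371 had -1.28 and actc1c had -1.10. None of these actin copies passed the edgeR adjustment. ATP2A2 ENSDARG00000005122, the other copy of the pump gene, had 50.7 to 85.7 CPM and a log2 fold change of 0.51 in the gata1a experiment, against -0.73 for atp2a2a. That difference from 0 did not pass the edgeR adjustment (adjusted p 0.342), and the difference between the copies was not tested.

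Markers of other cells were read beside the 9 genes. No gene of their lists passed the adjusted threshold in edgeR in either experiment, and their part in the levels of the 9 was not tested. Their counts below and above 0 are to be set against 50.6% of all genes below 0 in the gata1a experiment and 49.8% above 0 in the CD41 experiment. With gata1a cells the 20 macrophage genes summed to 1360.4 and 2633 CPM in the controls and to 276 and 1020.1 CPM in the OE libraries, with 13 of 14 tested genes below 0 (median -1.67) and 3 genes of the list at 0 in both controls. Endothelial genes summed to 787 to 993 CPM and 599 to 645 CPM, with 10 of 12 below 0 and a median of -0.47. Erythroid genes summed to 1455 to 2735 CPM in the controls, a range that held the OE sums of 1481 to 1561 CPM. Of the 10 tested genes, 9 lay below 0, with a median of -1.57. The erythroid sums include gata1a, the gene behind the sorting reporter and the 1 tested gene above 0. It had 388 to 707 CPM in the controls and 642 to 826 CPM in the OE libraries. The 13 genes of the mitochondrial genome, which were not used as markers of a cell type, all lay below 0, with a median of -0.72. Their summed level was 119902 ± 8895 CPM in the controls against 73124 ± 3379 CPM in the OE libraries (SD, n = 2 each). Thrombocyte genes, the cell type of the labels, went the other way, from 11308 to 12154 CPM in the controls and from 13050.3 to 14639 CPM in the OE libraries, with 11 of 15 tested genes above 0 and a median of 0.15. Smooth muscle genes, a list that shares ldb3a with the Z disc and titin list, were split. Of the tested genes, 4 of 8 lay above 0, with log2 fold changes from -2.24 to 0.89. At an unadjusted p under 0.05, 2 were higher and 3 lower, beside 6.11% and 9.36% of all genes tested. The lowest was acta2, with 72.0 and 36.7 CPM in the controls against 12.8 and 10.2 CPM in the OE libraries (SE 0.35; adjusted p = 0.0605, edgeR). Of the tested fibroblast and epicardial genes, 7 of 10 lay below 0. Neutrophil genes summed to at most 8.93 CPM, and 5 of the 7 were at 0 in both groups.

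In the CD41 experiment thrombocyte genes summed to 8621 to 10163 CPM in wild type and 6229.9 to 10188 CPM in clo/+, with 13 of 16 tested genes below 0. Endothelial genes lay between 389 and 507 CPM in wild type and between 521 and 679.8 CPM in clo/+, with 11 of 12 above 0, and macrophage genes between 223 and 287 CPM and between 342 and 386 CPM, with 14 of 15 tested genes above 0. Erythroid genes had 5 of 10 above 0, smooth muscle genes 4 of 8, fibroblast and epicardial genes 8 of 11, neutrophil genes 1 of 4 and mitochondrially encoded genes 2 of 13.

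Genes whose profile over the 10 libraries was most like the mean profile of the 9 were ranked among 7740 genes with a mean of at least 10 CPM, by the root mean square difference of centred log2 CPM. The median gene stood at 0.617, whereas cmlc1 stood at 0.107, vmhc at 0.111 and actc1a, the farthest of the 9, at 0.443. Each of the 9 is part of the mean profile, so its closeness to it is partly built in. The 8 closest genes outside the 9 were eef1da, MPC1, asb5b, PKIG, AK1, SLC25A5, HADH and PDLIM5, at 0.098 to 0.147. They include SLC25A5, an ADP/ATP carrier gene of mitochondria, AK1, an adenylate kinase gene, HADH, a gene of fatty acid oxidation, and PDLIM5, which encodes a Z-disc-associated protein. SLC25A5 had 7216 to 12612 CPM in the CD41 libraries, 13647 and 16624 CPM in the controls against 8997 and 9204 CPM in the OE libraries. The 8 genes were picked by likeness to the profile, so their lower values in the OE libraries follow from that choice.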

How the data were processed

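Polyadenylated RNA of sorted cells was primed with oligo-dT for reverse transcription, then amplified and tagmented, per the labels' protocols, which mention no molecular identifiers. The authors deposited raw counts per gene, 1 file per library. Per the submitters' processing notes, FastQC 0.11.4, Trim Galore 0.6.0, HISAT2 2.1.0, DESeq2 1.22.1 and build GRCz11 were used; the counter and its use of strand are not given in the sources used here, so overlapping and antisense genes may share reads. Symbols came from a name table that covers 29201 of 32520 identifiers. Of the 9 genes, 4 were matched by identifier, 4 by symbol and vmhc through a RefSeq synonym.

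Separate fits were made for the CD41 and gata1a libraries in edgeR 4.0.16 (R 4.3.3). Genes passed filterByExpr with a minimum count of 10 and a minimum total of 15, counts were scaled by TMM factors, and groups were compared by the quasi-likelihood test. P-values were adjusted by Benjamini-Hochberg over all genes tested, and an adjusted p under 0.05 was called. Tests are two-sided. Exact permutation was not used, since 3 libraries against 3 cannot pass that threshold. Replicates are pools of sorted cells, so p-values measure the spread between these libraries. Counting precision covers counting error only. Of 230 symbols in 15 gene lists, 215 were matched, to 244 genes. Members and lists were chosen with earlier results of these data known. Genes outside the 9 were named by a rule: from each muscle list and the mitochondrially encoded list, the gene with the highest mean CPM and that with the smallest p in each comparison; itga2b, gata1a and npas4l; and the 8 genes with the nearest profile. Not all genes this rule names are described. Alternatives were other scaling factors, scaling without 128 muscle or 16 globin genes, other filters, DESeq2 1.42.0, limma-voom (limma 3.58.1), 1 fit of all 10 libraries, a replicate block and each library left out.

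The fit was tested on simulated counts with 200 genes changed. It recovered 100% of 4-fold and 59% of 2-fold changes among 13749 genes of the CD41 design, and 97% and 24% among 14006 genes of the gata1a design. False calls were 4.79% and 11.03% of all calls.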

Additional observations from a re-analysis of the deposited data

How the results depend on the processing

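Under every alternative run, the 9 genes stayed lower in the OE libraries, and none passed the adjusted threshold in the CD41 experiment. Counts of called genes moved. In the CD41 experiment, edgeR called 2 genes in all, and 1 when scaled without muscle or without globin genes, in limma-voom and in 1 fit of all 10 libraries, 4 with at least 10 counts in every library, 132 with DESeq2 and 211 with no filter; with 1 library left out it called 0 to 17. In the gata1a experiment the 5 genes became 2 with library size only, 3 scaled without globin genes, 30 with at least 10 counts in every library, 90 with limma-voom, 110 in 1 fit of all 10 libraries, 380 with DESeq2, 648 with no filter and 52 to 1111 with 1 library left out. Of the 9 genes, 8 were called there with no filter, beside 2.93% of the 22133 genes then tested. DESeq2 called 8 of the 9 (2.71% of all genes tested) and limma-voom 2 (0.643%). The causes were not tested. With library size only, the median of all genes moved by 0.18 and that of the 9 was -0.74. With 1 library left out, the median of the 9 ran from -1.05 to -0.63 in the gata1a experiment and from -0.053 to 0.46 in the CD41 experiment.

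Over all genes, the replicate numbers showed little pairing of the libraries. Deviations from the group mean correlated at -0.00085, 0.072 and 0.057 between same-numbered CD41 libraries and at 0.056 in the gata1a experiment. Not every CD41 library correlated best with its own number. For the 9 genes, the mean centred log2 CPM rose from replicate 2 to 1 to 3 in both CD41 groups. It was -0.64, -0.28 and 0.17 in wild type and -0.54, 0.026 and 0.22 in clo/+. Whether libraries of the same number shared a batch was not tested. With a replicate block, 120 genes and 0 of the 9 were called in the CD41 experiment, and 187 genes and 3 of the 9 (actc1a, myl7 and vmhc) in the gata1a experiment.

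Directions that turned with 1 library left out are given as ranges of the log2 fold change. In the CD41 experiment they were -0.060 to 0.39 for myl7, -0.11 to 0.46 for cmlc1, -0.48 to 0.041 for titin, -0.20 to 0.30 for vmhc, -0.051 to 0.24 for tpm4a, -0.70 to 0.18 for ACTA1 ENSDARG00000055618, -0.087 to 0.40 for MYOM1, -0.34 to 0.12 for TTN ENSDARG00000028213, -0.28 to 0.32 for MYOZ2, -0.21 to 0.033 for NKX2-5, -0.53 to 0.75 for acta2, -0.73 to 0.043 for itga2b, -0.65 to 0.83 for npas4l, -0.083 to 0.28 for eef1da, -0.11 to 0.28 for MPC1, -0.11 to 0.27 for HADH and -0.17 to 0.39 for PDLIM5. In the gata1a experiment they were -2.61 to 0.32 for ACTA1 ENSDARG00000036371, -0.51 to 0.049 for DES, -0.49 to 0.070 for GATA6 and -0.40 to 0.67 for npas4l. ACTC1 ENSDARG00000057911, a copy outside that rule, ran from -0.73 to 2.93 there. Other turns in the CD41 experiment were MYOZ2 with library size only (0.015) and npas4l with limma-voom (-0.088) and in 1 fit of all 10 libraries (-0.019).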
